A study of Mus musculus with 6 samples.

Results

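The genes of 8 secreted BMP-family ligands, Bmp2, Bmp3, Bmp4, Bmp5, Bmp6, Bmp7, Gdf5 and Gdf6, were examined as possible binding sites of the Smads that carry BMP signals. They are 8 of 21883 protein-coding genes on the mouse nuclear chromosomes, taken as a named list. A site was assigned to a gene when the summit of a ChIP-seq peak lay inside the gene or within 50 kb of either end, and 99 of 123182 peaks met this rule. Peaks came from 4 groups with 1 library each: molar pSmad1/5, molar Smad4, limb pSmad1/5 and limb Smad4. ChIP-seq maps where a protein sat on DNA, here Smad4 and the receptor-phosphorylated form of Smad1 and Smad5 (pSmad1/5). All groups came from wild-type embryos of the CD1 stock at E13.5, with no treatment named, and differed in the tissue (molar tooth germ or limb) and the antibody. The lists hold 35476, 34561, 23389 and 29756 peaks in the order above, and the read depth behind them is unknown. Input chromatin of each tissue was also sequenced and is not analysed here. The labels do not give the number of embryos behind a library or the share of epithelium and mesenchyme in it. Peak lists hold no expression, so the tissue labels could not be checked against marker transcripts.

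BMP ligands are secreted dimers that bind paired type I and type II serine/threonine kinase receptors. The receptor phosphorylates Smad1 and Smad5, which join Smad4, enter the nucleus and bind regulatory DNA. In the molar, Bmp4 is a classic signal between dental epithelium and mesenchyme, acting with the homeobox factor Msx1. In the limb, Bmp2, Bmp4 and Bmp7 act in the outgrowing bud and in the tissue between the digits, and Gdf5 and Gdf6 mark the forming joints. Peaks of these proteins near the ligand genes give binding positions only, and whether BMP signals act on the genes was not tested.

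Across the 8 genes there were 20 molar pSmad1/5 peaks, 21 molar Smad4 peaks, 22 limb pSmad1/5 peaks and 36 limb Smad4 peaks. Bmp6 (27 peaks over the 4 lists), Bmp7 (26), Bmp4 (19) and Gdf5 (15) held most of them. Gdf6 had 6, Bmp3 had 4, and Bmp2 and Bmp5 had 1 each. These are raw counts, and the windows ran from 104345 bp at Gdf5 to 254599 bp at Bmp6. For 29 of the 99 peaks another coding gene was nearer than the ligand gene. In molar, 5 of 8 genes had a pSmad1/5 peak and 6 had a Smad4 peak. In limb, 6 had a pSmad1/5 peak and 7 had a Smad4 peak. Among all protein-coding genes the shares with a peak were 74.9%, 68.0%, 68.0% and 71.2% in that order, so the presence of a peak within 50 kb is common and the ligand counts lie close to this background. The median ligand gene had 2.5, 1.5, 2 and 3.5 peaks in that order, and the median protein-coding gene had 2, 1, 1 and 2. No gene of the 8 lacked peaks in all 4 lists, and no share over all coding genes is given for this pooled count.

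**Figure D1:**
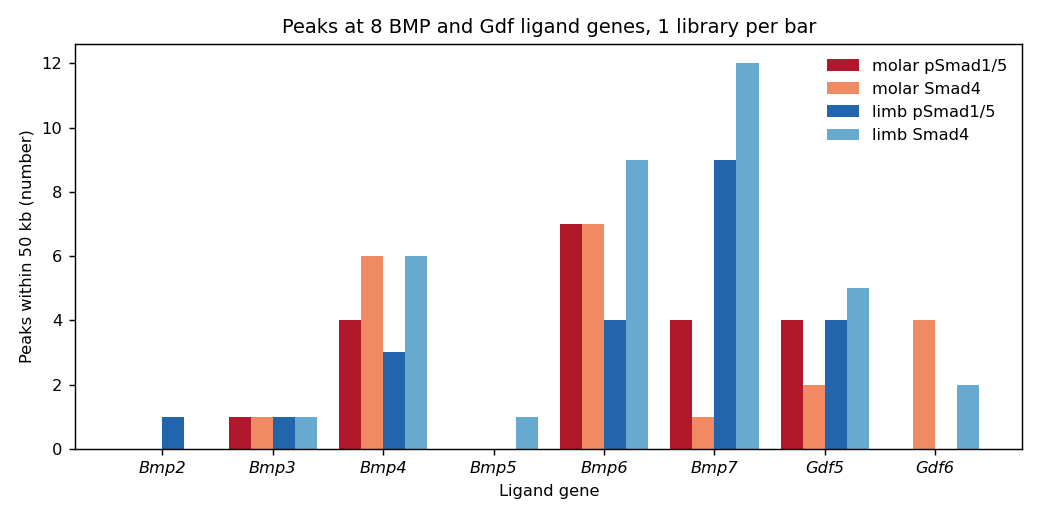
Number of peaks (vertical axis) with a summit inside or within 50 kb of each ligand gene (horizontal axis), with 1 bar per library in the order molar pSmad1/5, molar Smad4, limb pSmad1/5, limb Smad4. The tallest bar is limb Smad4 at Bmp7 with 12 peaks, and Bmp2 and Bmp5 have 1 peak in all.

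The DNA at a few of these sites is shown here, because the sites are named below. Of the 99 peaks, 5 fell whole into promoter windows of RefSeq genes on GRCm38.p6, whose primary chromosomes carry mm10 coordinates, and 4 of them are printed. The remaining one, a molar pSmad1/5 peak (38527836 to 38527887 on chromosome 13), lies past the start of Txndc5 and is left out. Each is printed 5′ to 3′ on the plus strand, and the capitals mark the summit with 3 bases on either side. They are a limb Smad4 peak inside Bmp4 (chr14:46387419-46387469), a limb pSmad1/5 peak inside Bmp7 (chr2:172934238-172934296), and a limb pSmad1/5 peak (chr13:38528046-38528113) and a limb Smad4 peak (chr13:38527911-38527957) at the upper end of Txndc5, the neighbour of Bmp6. Deposited starts were read as 0-based and are given 1-based, and summits were read as 1-based.
Bmp4, limb Smad4: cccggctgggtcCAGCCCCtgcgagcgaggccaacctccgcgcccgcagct
Bmp7, limb pSmad1/5: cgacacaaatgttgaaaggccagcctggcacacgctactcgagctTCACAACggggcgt
Txndc5 end, limb pSmad1/5: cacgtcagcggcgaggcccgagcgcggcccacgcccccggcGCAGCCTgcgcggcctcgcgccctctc
Txndc5 end, limb Smad4: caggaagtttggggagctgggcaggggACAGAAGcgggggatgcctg
The G and C share of these peaks was 78.4%, 57.6%, 83.8% and 66.0% in the order printed. None of the 4 held a match to the Smad motifs described next.

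Promoter sequence from RefSeq was matched for 3 of the 8 genes (Bmp4, Bmp5 and Bmp6), and the 250 bases before the transcription start are shown in the direction of the gene. Bmp4 and Bmp6 are shown because limb or molar peaks lay next to their starts, and Bmp5 because none did. The windows are chr14:46390670-46390919 on the minus strand for Bmp4, chr13:38345466-38345715 on the plus strand for Bmp6 and chr9:75775115-75775364 on the plus strand for Bmp5. Capitals mark matches to motifs searched on both strands.
Bmp4: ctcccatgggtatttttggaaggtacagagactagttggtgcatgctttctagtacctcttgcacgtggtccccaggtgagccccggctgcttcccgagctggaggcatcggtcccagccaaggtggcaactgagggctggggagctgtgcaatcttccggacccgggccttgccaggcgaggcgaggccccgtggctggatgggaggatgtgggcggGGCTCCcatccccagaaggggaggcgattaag
Bmp6: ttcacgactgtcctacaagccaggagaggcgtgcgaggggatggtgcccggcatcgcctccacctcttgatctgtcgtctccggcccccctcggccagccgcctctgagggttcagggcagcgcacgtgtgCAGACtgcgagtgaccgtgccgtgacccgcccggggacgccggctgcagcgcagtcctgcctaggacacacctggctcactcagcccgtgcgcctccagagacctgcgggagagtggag
Bmp5: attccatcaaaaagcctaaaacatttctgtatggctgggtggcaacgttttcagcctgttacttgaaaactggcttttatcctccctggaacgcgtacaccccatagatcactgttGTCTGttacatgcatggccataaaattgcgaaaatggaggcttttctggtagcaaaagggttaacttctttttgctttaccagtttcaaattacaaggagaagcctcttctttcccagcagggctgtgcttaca
The motifs were GGCGCC and GGAGCC, both GC-rich Smad elements, then CAGAC, a Smad core, and GTCTAGAC, the palindromic Smad element. The last was a BMP-response pattern of GGCGCC or GGCGAC, any 5 bases and GTCT, which can overlap GGCGCC. Bmp4 held a single GGAGCC match, 32 bases before the start, and 28.9% of 17491 protein-coding promoters of the same length held this motif. Bmp6 and Bmp5 each held a single CAGAC match, 119 and 134 bases before the start, against 40.9% of promoters. GGCGCC, GTCTAGAC and the BMP-response pattern, present in 12.1%, 0.183% and 0.103% of promoters, had no match in the 3 windows. The G and C share was 63.2% for Bmp4, 68.8% for Bmp6 and 42.8% for Bmp5, where the median promoter had 55.2%.

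Bmp4 (chromosome 14, 46383525 to 46390669 on mm10) had 4 molar pSmad1/5, 6 molar Smad4, 3 limb pSmad1/5 and 6 limb Smad4 peaks. No other protein-coding gene lay within 50 kb, and Bmp4 was the nearest coding gene to all 19 peaks. Of these, 10 lay inside the gene, which is 7.145 kb long. This equals 1.40 peaks per kb over the 4 lists, against 0.690 at Gdf5 and at most 0.180 at the other ligand genes with a peak inside them. Gdf5 (4.345 kb) and Bmp4 are the shortest of these genes, and no such density over all coding genes is given. In molar, 3 of 4 pSmad1/5 peaks but 1 of 6 Smad4 peaks were inside, whereas in limb all 3 pSmad1/5 peaks and 3 of 6 Smad4 peaks were.

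At the annotated transcription start of Bmp4 there was 1 limb pSmad1/5 peak and 1 limb Smad4 peak, and no molar peak within 1 kb. The nearest molar pSmad1/5 summit lay 2489 bp after the start and the nearest molar Smad4 summit 1824 bp after it. The nearest limb pSmad1/5 summit lay 87 bp and the nearest limb Smad4 summit 142 bp after it. The limb pSmad1/5 peak (46390495 to 46390619, score 3.53) overlapped the limb Smad4 peak (46390383 to 46390570, score 3.43). Both lie in the gene, next to the promoter window printed above. Their scores, which are the authors' own values per peak, were close to the chromosome's list medians of 3.41 and 3.52, so neither stood out by this measure.

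Elsewhere in Bmp4 the lists approached one another without overlap. A molar Smad4 peak (summit 46388845, score 4.29) and a limb Smad4 peak (summit 46388944, score 3.76) lay 99 bp apart. The highest-scoring molar pSmad1/5 peak (summit 46387986, score 4.13) was inside the gene, as was the highest limb pSmad1/5 peak (summit 46385922, score 3.77). For limb Smad4 the highest score, 3.81, belonged to the peak whose sequence opens the set above, 44 bp from the start of the noncoding RNA gene Gm15222. Beyond the gene, molar Smad4 peaks were spread from 13960 bp below its lower end to 47891 bp above its upper end.

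Bmp7 (chromosome 2, 172868012 to 172940321), a ligand of limb, kidney and eye development, had 4 molar pSmad1/5 peaks, 1 molar Smad4 peak, 9 limb pSmad1/5 peaks and 12 limb Smad4 peaks. It held the highest scores of the ligand set, 6.45 and 5.48. The limb Smad4 peak at 172943261 to 172943309, which lies 2971 bp above the upper gene end, scored 6.45 and ranked 11 of 2631 limb Smad4 peaks on chromosome 2. Another, 13 bp from that gene end (172940272 to 172940347), scored 5.48 and ranked 76. A limb Smad4 peak deep inside the gene, at 172906262 to 172906310, scored 5.00 and ranked 161.

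The upper end of Bmp7 carried limb peaks of both antibodies. A limb pSmad1/5 peak (172940404 to 172940469, score 4.31, the highest pSmad1/5 score among the limb ligand peaks) had its summit 124 bp beyond the end. The limb Smad4 summit at the same end was 137 bp away from it, and the peaks did not overlap. In molar, the nearest pSmad1/5 summit was 1186 bp from this end with a score of 3.01, and the only Smad4 peak lay 37935 bp away, inside the neighbour Spo11 (score 4.46). The limb pSmad1/5 peak whose sequence is printed above lay inside Bmp7, 6035 bp from the upper end, in the promoter window of the noncoding RNA gene Gm40010, with a score of 3.46. Another limb pSmad1/5 peak, at 4880 bp, scored 3.74.

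Bmp6 (chromosome 13, 38345716 to 38500314), a ligand close to Bmp5 and Bmp7 in sequence and known for its role in iron control through hepcidin, had 7 molar pSmad1/5, 7 molar Smad4, 4 limb pSmad1/5 and 9 limb Smad4 peaks. Of these 27 peaks, 15 lay inside the gene, and for 11 the nearest coding gene was a neighbour, mostly Txndc5. The molar pSmad1/5 scores ran from 2.01 to 2.77, under every score at Bmp6 in the other 3 lists (3.12 to 4.66 for molar Smad4, 3.15 to 3.88 for limb pSmad1/5 and 3.14 to 3.88 for limb Smad4). The lowest scores listed on chromosome 13 are 2 for molar pSmad1/5 and 3 for the other lists, so all 7 of these molar peaks would be missing from a list that began at 3.

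At the start of Bmp6, molar pSmad1/5 had a summit 548 bp before it (score 2.77). Limb pSmad1/5 had one 1445 bp after it (score 3.15), and limb Smad4 had summits 368 and 767 bp after it (scores 3.36 and 3.52). The nearest molar Smad4 summit to the start was 48844 bp away. Near the upper end of Txndc5, 3 lists had summits within 205 bp: molar pSmad1/5 at 38527885, limb Smad4 at 38527941 and limb pSmad1/5 at 38528090. These lie 27571 to 27776 bp from Bmp6 and 734 to 939 bp from the end of Txndc5, and thus inside the outermost ends of that gene. The limb Smad4 and limb pSmad1/5 summits were 27 and 176 bp before the Txndc5 start that its promoter window uses. The strongest Bmp6 peak, molar Smad4 at 38503315 to 38503366 with a score of 4.66, was also inside Txndc5, 3044 bp beyond Bmp6.

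Gdf5 (chromosome 2, 155941023 to 155945367), a ligand of joint formation and digit length, had 4 molar pSmad1/5, 2 molar Smad4, 4 limb pSmad1/5 and 5 limb Smad4 peaks. It is a short gene between Uqcc1 and Cep250, and 12 of its 15 peaks lay inside these neighbours. Regulatory sequences of Gdf5 are known to lie in and around Uqcc1. Inside Gdf5 itself there were 3 peaks, a molar pSmad1/5 peak with a summit 635 bp from an end (score 3.15), a limb pSmad1/5 peak at 1818 bp (score 3.56) and a limb Smad4 peak at 1583 bp (score 3.49). The limb summits were 235 bp apart. The highest-scoring molar pSmad1/5 peak (4.14) and limb Smad4 peak (3.67) lay in Cep250. The highest score at Gdf5 was that of a molar Smad4 peak inside Uqcc1 (155910879 to 155910929, 5.14), 30108 bp from Gdf5. In Cep250, about 40 kb from Gdf5, summits of molar pSmad1/5 (155985623), molar Smad4 (155986027) and limb Smad4 (155985993) lay within 404 bp.

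Gdf6 (chromosome 4, 9844372 to 9862345), which acts with Gdf5 in joints and in the skull, had no pSmad1/5 peak in either tissue. It had 4 molar Smad4 and 2 limb Smad4 peaks, with no other coding gene within 50 kb. The nearest pSmad1/5 summits were 149564 bp away in molar and 168802 bp away in limb. The molar Smad4 peaks scored 3.21 to 4.14, with the nearest to a gene end inside the gene at 4978 bp. A limb Smad4 peak of 314 bp length (9844015 to 9844328) had its summit 73 bp below the lower gene end and scored 3.42, and the other limb peak was inside the gene with a score of 3.07.

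The other 3 genes had few peaks. Bmp3 (chromosome 5, 98854415 to 98884053), a family member that mostly opposes BMP signals, had 1 peak in each list. Its molar pSmad1/5 peak (summit 691 bp from the lower end, score 3.42) and its limb Smad4 peak (1218 bp, score 4.62) lay inside the gene, 527 bp apart. Its molar Smad4 and limb pSmad1/5 peaks were 45053 and 34526 bp away, nearer to Cfap299 and Prkg2. Bmp2 (chromosome 2, 133552159 to 133562896), a ligand of cartilage and bone, had a single peak, limb pSmad1/5 at 16283 bp with a score of 3.26. The next summits were 459751 bp away for molar pSmad1/5, 224047 bp for molar Smad4 and 137743 bp for limb Smad4. Bmp5 (chromosome 9, 75775365 to 75900316), the ligand altered in the short ear mouse, had a single limb Smad4 peak inside the gene, 104122 bp after the start, with a score of 3.71. At 124952 bp Bmp5 is the longest of the set after Bmp6 (154599 bp).

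**Figure D2:**
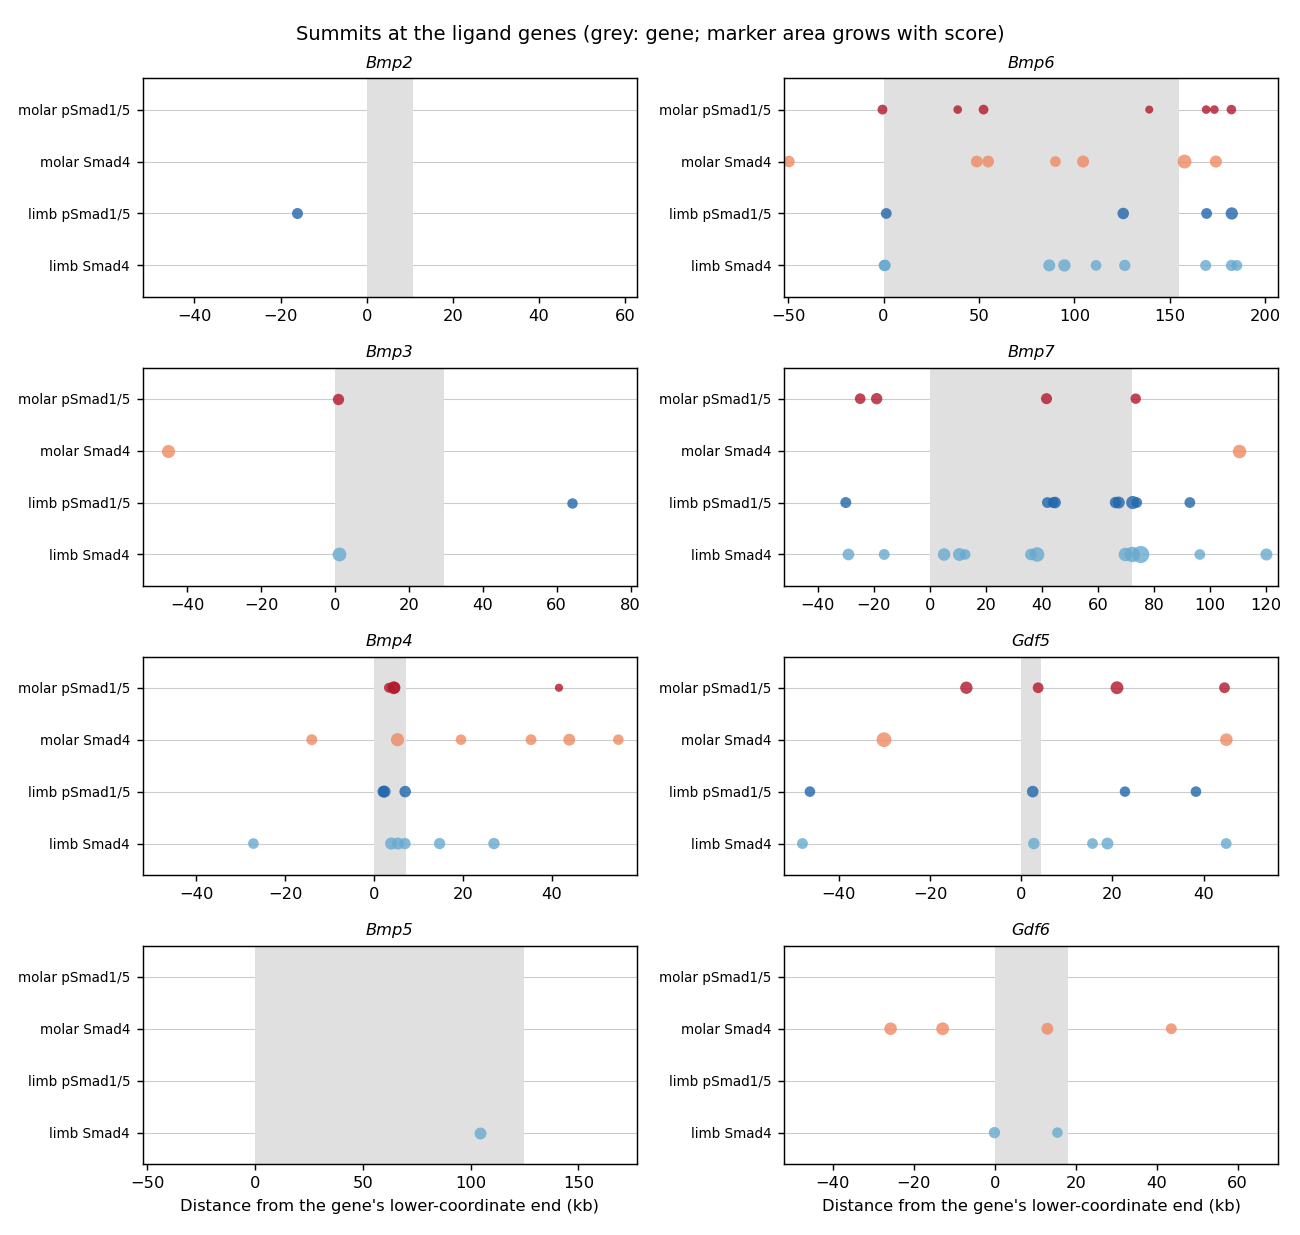
Summit positions in kb from the lower-coordinate end of each ligand gene (horizontal axis), with 1 row per library and the gene in grey. Marker area grows with the enrichment score. Summits crowd inside Bmp4 and at the upper end of Bmp7, and Bmp2 and Bmp5 have 1 summit each.

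Peaks close to gene ends were counted in each list. A summit lay within 1 kb of an end at Bmp3, Bmp6 and Gdf5 for molar pSmad1/5 (3 of 8), at none for molar Smad4 (0 of 8), at Bmp4 and Bmp7 for limb pSmad1/5 (2 of 8) and at Bmp4, Bmp6, Bmp7 and Gdf6 for limb Smad4 (4 of 8). The shares over all protein-coding genes were 20.7%, 7.76%, 15.5% and 21.8% in that order. For pSmad1/5, 0 of 8 genes had such a peak in both tissues, where 5.05% of coding genes did. This turned with the distance: within 2 kb, Bmp6, Bmp7 and Gdf5 had a pSmad1/5 summit in both tissues (3 of 8, beside 8.63% of coding genes). With 8 genes and 1 library per group, these counts have no test.

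Because list density differs between chromosomes, each count was set against the number of peaks that the gene's window would hold at its chromosome's mean density. Exact 95% Poisson intervals cover counting error only. For Bmp4 in molar the ratio was 2.03 (0.552 to 5.19) with pSmad1/5 and 3.44 (1.26 to 7.49) with Smad4. In limb it was 4.06 (0.838 to 11.9) with pSmad1/5 and 6.55 (2.40 to 14.3) with Smad4. For Bmp7 it was 2.83 (0.770 to 7.23), 1.54 (0.0391 to 8.60), 4.34 (1.98 to 8.23) and 4.74 (2.45 to 8.27) in the same order. Both genes thus exceeded their chromosome in limb Smad4 beyond counting error. For Bmp6 the limb Smad4 ratio was 3.997 (1.83 to 7.59), and its other lists had intervals that included 1. Gdf5 exceeded its chromosome in molar pSmad1/5, at 4.67 (1.27 to 11.9), and in limb Smad4, at 3.26 (1.06 to 7.60).

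In all, 7 of 32 combinations of gene and list had an interval above 1. These were Gdf5 for molar pSmad1/5, Bmp4 for molar Smad4 and Bmp7 for limb pSmad1/5 (1 of 8 genes in each list). For limb Smad4 they were Bmp4, Bmp6, Bmp7 and Gdf5 (4 of 8). Over 21627 protein-coding genes of the autosomes and chromosome X, intervals above 1 were found in 19.2%, 8.28%, 19.5% and 23.4% in that order. The counts of the first 3 lists were near this background, and 4 of 8 in limb Smad4 has no test. A ratio at least as high as that of Bmp4 occurred in 6.57% of coding genes for molar Smad4 and 6.40% for limb Smad4. For Bmp7 in limb the shares were 14.0% for pSmad1/5 and 13.0% for Smad4. No interval lay below 1, which was possible only for Bmp6 in the molar lists, with 5.23 (pSmad1/5) and 4.89 (Smad4) peaks expected. Elsewhere at most 2.53 peaks were expected, where even 0 peaks gives an interval that includes 1. Of the 8 combinations without any peak, Bmp5 in molar pSmad1/5 had the highest expected number, 1.89, so none of the 8 could show a deficit.

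**Figure D3:**
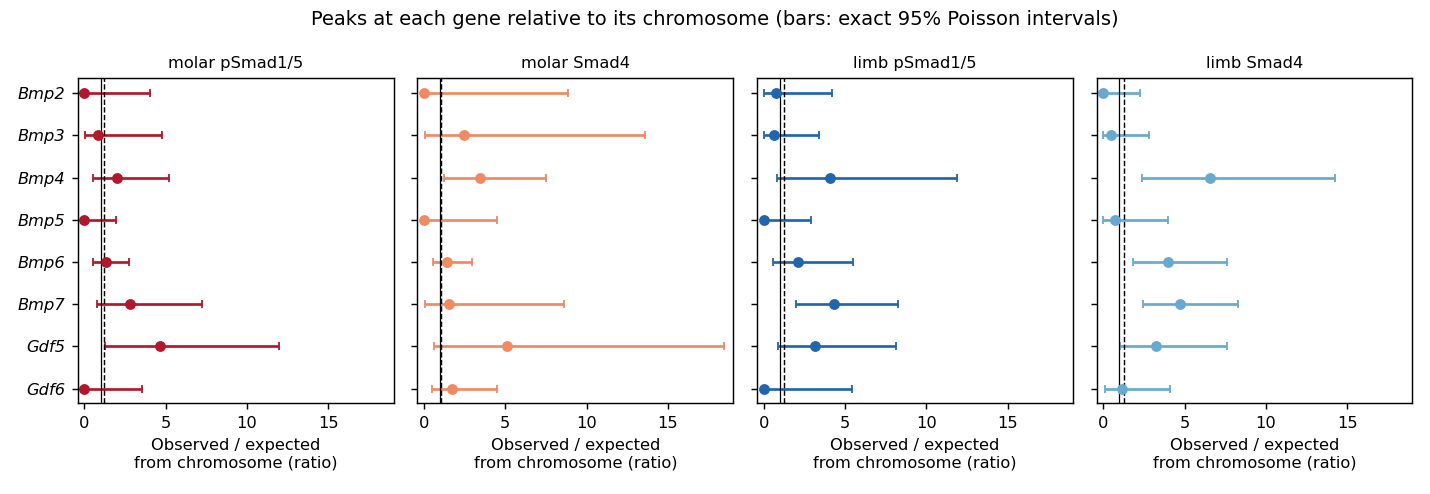
Number of peaks at each ligand gene divided by the number expected from its chromosome's mean density (horizontal axis, ratio), with exact 95% Poisson intervals and 1 panel per library. The solid line is a ratio of 1 and the dashed line the median of all coding genes. In the limb Smad4 panel the intervals of Bmp4, Bmp6, Bmp7 and Gdf5 lie above 1.

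Molar was then compared with limb for each antibody. For pSmad1/5, molar had more peaks than limb at Bmp4 (4 against 3) and Bmp6 (7 against 4), fewer at Bmp7 (4 against 9) and Bmp2 (0 against 1), and equal numbers at the other 4 genes. At Bmp6 the direction turned when lists of equal size per chromosome were compared (2 molar against 4 limb), and all 7 molar peaks score below the lowest limb score of 3 on that chromosome. At Bmp4 the molar excess was absent with lists of equal size (3 against 3). Its molar peaks with scores of 2.72 and 2.07 also lie below the lowest limb score of 3 on chromosome 14. For Smad4, molar had more at Gdf6 (4 against 2), fewer at Bmp7 (1 against 12), Gdf5 (2 against 5), Bmp6 (7 against 9) and Bmp5 (0 against 1), and equal numbers at 3 genes. The clearest case by count was Smad4 at Bmp7. There, 1 of 13 peaks was molar, a share of 7.69% (exact binomial 95% interval 0.195 to 36.0%). On chromosome 2 as a whole 673 molar and 2631 limb Smad4 peaks are listed, a molar share of 20.4%, which lies inside that interval. On this chromosome the lowest score listed is 4 in molar and 3 in limb. With a score of at least 4 in all lists, Bmp7 had 1 molar and 5 limb Smad4 peaks.

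Against the chromosome, no difference between lists at a ligand gene exceeded counting error. Intervals could be formed for 27 combinations of gene and list pair (molar against limb for each antibody, pSmad1/5 against Smad4 in each tissue), and the chromosome's share lay outside 0 of them. Those at Bmp2, Bmp3 and Bmp5, and the limb one at Gdf6, rest on 1 or 2 peaks. No split of so few peaks could exclude the chromosome's share, so these cannot show a difference. At Bmp6, 7 of 11 pSmad1/5 peaks were molar (63.6%, 30.8 to 89.1%), where chromosome 13 had 73.6%. At Bmp4, 6 of 12 Smad4 peaks were molar (interval 21.1 to 78.9%), where chromosome 14 had 65.6%. At Gdf6, 0 of 4 molar peaks were pSmad1/5 peaks (0 to 60.2%), where chromosome 4 had 31.3%. The intervals are wide, and such counts do not show that the tissues or antibodies act alike.

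Shared sites were rare at the ligands, as in the lists as a whole. The overlap of limb pSmad1/5 with limb Smad4 at the Bmp4 start was the only overlap of at least 1 bp among the 6 pairs of lists. It made up 1 of 22 limb pSmad1/5 ligand peaks (4.55%), beside 4.85% of all limb pSmad1/5 peaks. Overlaps were 0 of 20 for molar pSmad1/5 with molar Smad4 (all peaks 0.589%), with limb pSmad1/5 (1.11%) and with limb Smad4 (1.92%). They were 0 of 21 for molar Smad4 with limb Smad4 (0.443%) and 0 of 22 for limb pSmad1/5 with molar Smad4 (0.415%). With summits within 200 bp counted as shared, limb pSmad1/5 and limb Smad4 had 3 of 22 (all peaks 8.94%), and molar and limb Smad4 had 2 of 21 (1.15%).

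Looser groupings placed 21 of the 99 peaks in 9 groups with summits of at least 2 lists linked by gaps of up to 500 bp, a distance chosen after the values were seen. Over all peaks of the 4 lists, 14.7% were in such groups, and the 21 peaks have no test against this share. These groups lay at Bmp4, Bmp6, Bmp7 and Gdf5. Besides those described above, molar and limb pSmad1/5 summits lay 309 bp apart inside Bmp7 (172909661 and 172909970) and 388 bp apart just above its upper end (172941507 and 172941895). Near Bmp6, limb Smad4 (38514428), molar pSmad1/5 (38514667) and limb pSmad1/5 (38514916) summits lay within 488 bp inside Txndc5.

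Pooled over the 4 lists, scores of 4 or more were about as frequent among the ligand peaks as among all peaks. Of the 99 peaks, 17 (17.2%) scored 4 or more, beside 23135 of all 123182 peaks (18.8%). Single lists departed from this in both directions. In molar, 2 of 20 pSmad1/5 and 8 of 21 Smad4 ligand peaks scored 4 or more, beside 3533 of 35476 and 7206 of 34561. In limb, 1 of 22 and 6 of 36 did, beside 4771 of 23389 and 7625 of 29756. These counts have no test. The median scores of the ligand peaks were 3.06 (pSmad1/5) and 3.69 (Smad4) in molar, and 3.25 (pSmad1/5) and 3.46 (Smad4) in limb. The medians of the whole lists were 2.9995 and 3.38 in molar, and 3.44 and 3.53 in limb. With a score of at least 4, peaks remained at 2 of 8 genes for molar pSmad1/5 (Bmp4, Gdf5), 6 for molar Smad4 (Bmp3, Bmp4, Bmp6, Bmp7, Gdf5, Gdf6), 1 for limb pSmad1/5 (Bmp7) and 2 for limb Smad4 (Bmp3, Bmp7). Among all protein-coding genes the shares were 27.8%, 38.9%, 34.3% and 43.4% in that order. The 6 genes of the molar Smad4 list include 3 on chromosomes 2 and 5, where that list holds no lower score. The distance limit is equally soft. The outermost peak counted was a molar Smad4 peak 49504 bp from Bmp6 (score 3.50), and the first one left out was a molar Smad4 peak 50001 bp from Gdf6 (score 3.76).

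**Figure D4:**
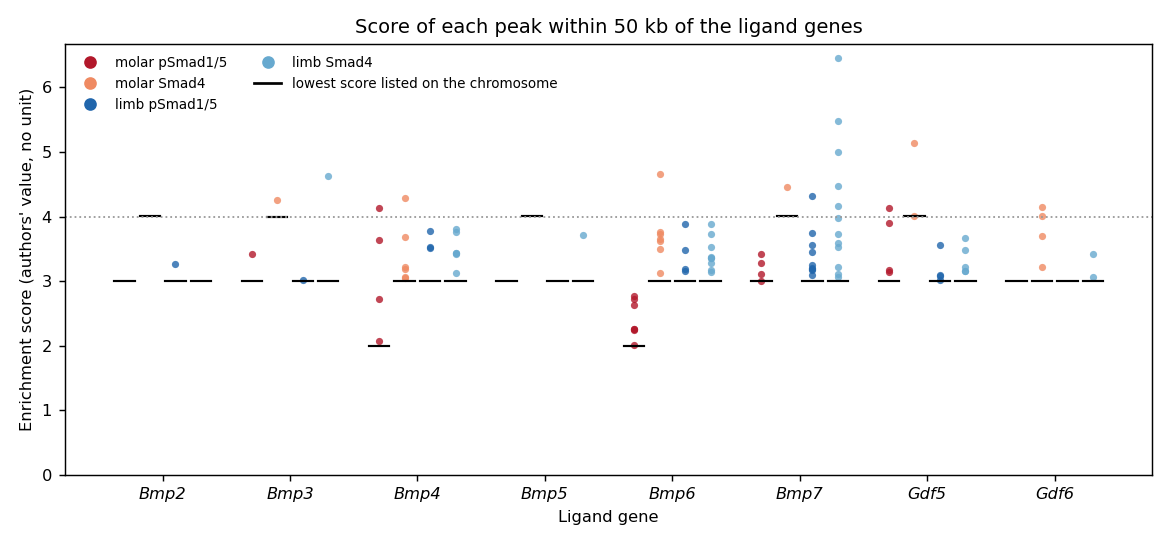
Enrichment score (vertical axis, the authors' value without unit) of each peak within 50 kb of a ligand gene (horizontal axis), coloured by library. Black ticks give the lowest score listed on that gene's chromosome in that library, and the dotted line marks a score of 4. Limb Smad4 at Bmp7 reaches 6.45, and the molar pSmad1/5 points at Bmp6 lie below 3.

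The rest of the pathway gives the setting. Over all protein-coding genes, 74.9% had a molar pSmad1/5 peak, 68.0% a molar Smad4 peak, 68.0% a limb pSmad1/5 peak and 71.2% a limb Smad4 peak. Of 21 other BMP, Gdf, activin and TGF-beta ligand genes, 20 had a molar pSmad1/5 peak, 19 a molar Smad4 peak, 17 a limb pSmad1/5 peak and 18 a limb Smad4 peak. The most peaks over the 4 lists stood at Amh (49), the Müllerian inhibitor, at Inha (37), the inhibin subunit, and at Gdf1 (28), a left-right axis ligand. Of 7 receptor genes, 6, 4, 6 and 5 had a peak in that order, led by the type I receptor gene Bmpr1a with 26. Among 12 antagonist and modulator genes the numbers were 11, 9, 6 and 11, with Bmp1, the protease that cleaves the antagonist chordin, at 39. Of 6 Smad genes 6, 6, 5 and 6 had a peak, and of 4 Id genes, the common BMP targets, 4, 4, 3 and 3. All of these are raw counts within 50 kb, not set against chromosome density or neighbouring genes, and have no test. Bmp6, the ligand with the most peaks, had 4 counts most like those of Acvrl1 and Gdf2 (summed difference of 6 each over the 4 lists) and Nbl1 (7).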

How the data were processed

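Peak positions in 4 deposited lists were analysed, 1 library each for molar pSmad1/5, molar Smad4, limb pSmad1/5 and limb Smad4. Per the labels, tissue was fixed in 1% formaldehyde for 15 min and the authors called peaks with BCP in transcription factor mode. The submitters' processing notes name bcl2fastq, Bowtie2, SAMtools, bedtools, deepTools and mm10. Use of the inputs and filtering of duplicates are not given in the sources used here. The deposited enrichment score is the authors' value per peak. The deposited p-value was under 0.001 throughout and was not used. Peak length and summit were taken as deposited. Summits lay between the deposited start plus 1 and the end, and were read as 1-based. Read depth is unknown.

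Gene ends and promoters came from RefSeq tables on GRCm38.p6. Exons and introns were not separated, and strand was known for 3 of the 8 genes. Distances were measured from summits, and list overlap needed at least 1 bp. Intervals are exact (95%) and cover counting error only. Since each group is a single library, differences have no replicate check and no test. Alternatives changed the distance, score minimum, list size, gene assignment and overlap rule. Motifs were sought in coding-gene promoters and in the 5 peaks that lie whole in a promoter window. Members and lists were chosen with earlier results of these data known. All 8 genes are named, with nearest, highest-scoring and shared peaks, and pathway genes by their number of peaks. Counting was tested on simulated data. Counting used pandas 2.3.3 and numpy 2.4.6 under Python 3.11.15, intervals scipy 1.17.1, and plots matplotlib 3.10.9.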

Additional observations from a re-analysis of the deposited data

Results flagged for a closer look

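The balance of antibodies ran in opposite directions in the tissues at Bmp7 and Gdf5. At Bmp7, pSmad1/5 minus Smad4 was 3 peaks in molar and -3 in limb. At Gdf5 it was 2 in molar and -1 in limb. With lists of equal size per chromosome this opposition was absent: Bmp7 had 0 pSmad1/5 and 1 Smad4 peaks in molar and 1 and 5 in limb, and Gdf5 had 2 and 2 in molar and 0 and 0 in limb. A minimum score of 4 gave the same counts at Bmp7. Both genes lie on chromosome 2, which holds 1470 pSmad1/5 and 673 Smad4 peaks in molar, and 2155 pSmad1/5 and 2631 Smad4 peaks in limb.

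At Bmp6, with the lists as deposited, the tissues ran in opposite directions for the antibodies, with molar minus limb at 3 peaks for pSmad1/5 and -2 for Smad4. With lists of equal size, limb had more peaks for both antibodies (2 molar against 4 limb for pSmad1/5, 5 against 9 for Smad4). With 1 library per group, whether these differences differ between groups was not tested. For each of these counts, the chromosome's own share of the lists lay within the exact 95% interval of the gene's share. At Bmp7 in molar, for example, 80.0% were pSmad1/5 peaks where chromosome 2 had 68.6%. In limb it was 42.9% where the chromosome had 45.0%.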

How the results depend on the processing

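Lists are given in the order molar pSmad1/5, molar Smad4, limb pSmad1/5, limb Smad4. Within 50 kb, 5, 6, 6 and 7 genes had 20, 21, 22 and 36 peaks. A window of 10 kb left 11, 7, 13 and 23 peaks, and 3 genes for molar Smad4. A window of 100 kb gave 31 molar pSmad1/5 peaks. A minimum score of 4 left 2, 8, 1 and 6 peaks, at 2 genes in molar pSmad1/5, and in limb at 1 (pSmad1/5) and 2 (Smad4). Equal numbers of top-scoring peaks per chromosome left 7, 13, 8 and 21 peaks, and 3 genes for each pSmad1/5 list. Counting a peak for its nearest coding gene alone left 3 genes for molar Smad4. The 10 kb, score and equal-list settings use shorter windows or lists by construction, and the nearest-gene setting drops peaks that lie nearer to a neighbour. Shares over all coding genes are given above for the 50 kb window and for the minimum score of 4. The other settings have none here, so their gene counts cannot be set against a background.

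Within 1 kb of an end, 3, 0, 2 and 4 genes had a peak. Within 2 kb there was 1 gene for molar Smad4 and there were 4 for limb pSmad1/5. A minimum score of 4 left 0 for molar pSmad1/5 and 1 for each limb list, and equal lists left 1 for molar pSmad1/5. Around the transcription starts of the 3 genes with known strand, the counts were 1 for each pSmad1/5 list and 2 for limb Smad4. Among these counts, only those at 1 kb have shares over all coding genes, given above. The others cannot be set against a background.

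The 1 shared limb site became 3 with summits within 200 bp, and 0 with a reciprocal overlap of 50% or a minimum score of 4. Summits within 200 bp also gave 2 sites for molar with limb Smad4 and 1 for molar pSmad1/5 with limb Smad4. No paired analysis was possible because each group has 1 library.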
